A study of Mus musculus with 2 samples.

Results

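Slc2a5, the gene of the fructose transporter GLUT5, and 9 genes of glycolytic enzymes were followed in mouse microglia, the resident macrophages of the brain. The enzyme genes were Hk2, Pfkl, Aldoa, Tpi1, Pgk1, Eno1, Pkm, Ldha and Ldhb. The members were chosen by name, 10 of the 32285 genes measured. They matched 11 rows of the feature table because Aldoa has 2 rows, and the second of these held 3 molecular counts and could not be tested. One group of animals was given tamoxifen (TAM), an estrogen receptor ligand that activates CreERT2, and the other its oil vehicle, for 4 weeks. All animals, controls included, were 12 weeks old and carried 1 copy of the Cx3cr1CreERT2(Litt) allele, which drives an inducible Cre recombinase from the microglial fractalkine receptor locus, and no Cre-negative animals were used here. Brain cells sorted as CD11b+ CD45+ Ly6G- CD206- were marked with 10 antibody hashtags, named TAM1 to TAM5 and Oil1 to Oil5, and loaded as 1 droplet pool for 10x 3′ RNA sequencing. Whether every hashtag marked its own mouse is not in the labels, so p-values cover only the variation from hashtag to hashtag, part of which may be technical.

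Glycolysis splits glucose into pyruvate in the cytosol and yields ATP without oxygen. Hexokinase traps the sugar and phosphofructokinase commits it, aldolase and triosephosphate isomerase form the three-carbon sugars, and phosphoglycerate kinase, enolase and pyruvate kinase carry these to pyruvate. Lactate dehydrogenase then interconverts pyruvate and lactate, with the A subunit known for favouring lactate formation and the B subunit for favouring lactate use. GLUT5 carries fructose, and within the brain its gene is known as one read mainly in microglia. Hypoxia-inducible factor 1 (HIF-1) is a well-known activator of many glycolytic genes and binds DNA at short elements built on the letters ACGTG or GCGTG.

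The matrix held 51821041 molecular counts (UMIs) in 9975 barcodes, and 7903 cells carried a single hashtag and passed the filters. Of these, 7545 lay in 7 clusters called microglia-like, and in each of these the median of 14 microglial marker genes was detected in 96.6% to 100% of the cells. Each hashtag gave 587 to 903 microglia-like cells and 2959521 to 4795880 UMIs, with a median of 4886 to 5089 UMIs per cell. By Xist and Y-linked RNA, TAM1, TAM2, Oil1 and Oil2 were male and the other hashtags female. Of 8 listed neutrophil genes, S100a8, S100a9, Ly6g and Retnlg were at 0 in the microglia-like cells. Levels below are UMIs per 1000000 (CPM) of the cells summed per hashtag. The 8 neutrophil genes still summed to 365 to 438 CPM with TAM and 362 to 440 CPM with oil, with 1 gene detected over 1 CPM.

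The members lie on 5 autosomes and the X chromosome of GRCm38. Slc2a5 (ENSMUSG00000028976, chr4:150119283-150144169, plus strand) and Eno1 (chr4:150236721-150248879, plus strand) are on the same chromosome. Hk2 (chr6:82725025-82774454), Tpi1 (chr6:124810586-124814296) and Ldhb (ENSMUSG00000030246, chr6:142490249-142507957) are all on the minus strand of chromosome 6. Aldoa (ENSMUSG00000030695, chr7:126795234-126800751, minus strand) and Ldha (chr7:46841475-46855627, plus strand) are on chromosome 7. Pfkl (chr10:77986947-78010083, minus strand), Pkm (chr9:59656368-59679375, plus strand) and Pgk1 (chrX:106187100-106203699, plus strand) are the remaining members. Tpi1 overlaps Spsb2 on the opposite strand, with 2335 UMIs for Tpi1 and 1060 for Spsb2 in the analysed cells, so its counts are uncertain if strand was not used. Aldoa overlaps Fam57b in the same way (5049 and 188 UMIs), and Hk2 overlaps Gm17034 (8688 and 11 UMIs). Eno1b, a near-identical relative of Eno1, held 31 UMIs against 3340 for Eno1.

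Upstream sequences of 5 members are shown because these genes differed in direction between cell states. They were taken from RefSeq windows of GRCm38.p6 and end before the first annotated exon base, and capitals mark ACGTG or GCGTG on either strand (CACGT and CACGC are the opposite-strand forms). Ldha and Pgk1 were among the genes that were higher in the Spp1-led cells. The Ldha stretch lies within the annotated span of the gene, upstream of the first of its 2 RefSeq starts.
Ldha upstream, chr7:46845554-46845803, plus strand: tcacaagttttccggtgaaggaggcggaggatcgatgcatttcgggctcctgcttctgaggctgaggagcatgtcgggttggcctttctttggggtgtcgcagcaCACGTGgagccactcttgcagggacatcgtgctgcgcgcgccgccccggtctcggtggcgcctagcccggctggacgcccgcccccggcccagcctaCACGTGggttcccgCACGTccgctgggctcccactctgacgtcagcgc
Pgk1 upstream, chrX:106186850-106187099, plus strand: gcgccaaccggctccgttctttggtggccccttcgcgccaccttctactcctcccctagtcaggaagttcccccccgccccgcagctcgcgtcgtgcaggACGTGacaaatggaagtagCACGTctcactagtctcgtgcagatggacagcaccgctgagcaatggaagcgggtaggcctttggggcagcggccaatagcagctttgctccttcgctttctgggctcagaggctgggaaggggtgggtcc
Hk2 and Ldhb were slightly below the level of clusters 0 to 2, and Slc2a5 was far below it.
Hk2 upstream, chr6:82774455-82774704, minus strand: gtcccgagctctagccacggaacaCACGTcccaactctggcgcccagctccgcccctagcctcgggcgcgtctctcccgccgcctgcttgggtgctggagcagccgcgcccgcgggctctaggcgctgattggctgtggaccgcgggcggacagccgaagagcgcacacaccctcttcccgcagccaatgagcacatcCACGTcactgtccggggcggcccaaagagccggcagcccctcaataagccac
Ldhb upstream, chr6:142507958-142508207, minus strand: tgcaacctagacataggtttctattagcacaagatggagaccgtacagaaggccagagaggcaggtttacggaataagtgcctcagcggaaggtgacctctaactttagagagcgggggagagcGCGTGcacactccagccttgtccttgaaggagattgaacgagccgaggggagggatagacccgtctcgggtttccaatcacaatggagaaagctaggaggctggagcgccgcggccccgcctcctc
Slc2a5 upstream, chr4:150119094-150119282, plus strand: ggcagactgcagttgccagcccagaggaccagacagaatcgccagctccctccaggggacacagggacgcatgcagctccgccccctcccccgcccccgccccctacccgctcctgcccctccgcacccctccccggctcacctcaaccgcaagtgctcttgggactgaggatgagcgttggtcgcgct
The Ldha stretch held 5 matches, and 4 of them formed 2 copies of the palindrome CACGTG, in which the strands overlap. Pgk1 and Hk2 held 2 matches each, Ldhb 1 and Slc2a5 none. Of 32841 upstream windows of 250 bases, 38.6% held at least 1 match and 16.7% held 2 or more. Tpi1, also higher in the Spp1-led cells, held no match, while Hk2 had as many as Pgk1. Over whole windows of 250 bases, which can reach past the first exon base, Aldoa held 1 match in 2 of its 3 windows. These 2 windows overlap and share that match. Pkm held 1 in 1 of 2 windows, past the first exon base, and the second Ldha window held 1. Eno1, also higher, held 1, 2 and 2 in its 3 windows, of which the last 2 overlap and share their matches. Pfkl held 1 in its 1 window. A match here is a description of letters and not of a bound site.

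The main comparison asked how the members differed between microglia of TAM-treated and oil-treated carriers. Aldoa and Ldhb fell with TAM, and no member rose. Aldoa, the aldolase of most tissues, had 128.5, 121.1, 118.7, 96.5 and 105.8 CPM in TAM1 to TAM5, against 152.1, 143.4, 141.8, 142.5 and 144.9 CPM in Oil1 to Oil5. Every TAM hashtag lay below every oil hashtag. The means were 114 ± 12.8 CPM with TAM and 145 ± 4.20 CPM with oil (SD, n = 5 each), a log2 fold of −0.34 ± 0.07 (SE; edgeR quasi-likelihood test, adjusted p = 0.00813). Ldhb, the B subunit of lactate dehydrogenase, had 325.0, 284.8, 309.0, 303.6 and 324.8 CPM in TAM1 to TAM5, against 345.3, 373.0, 410.7, 398.5 and 373.7 CPM in Oil1 to Oil5. The treatments again did not overlap, and the log2 fold was −0.30 ± 0.05 (SE; edgeR, adjusted p = 0.00474).

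These 2 of 10 members stood against 2.88% of 11171 tested genes called lower, and the 0 members called higher against 1.64% called higher. Treatments did not overlap for 2 of 10 members and for 5.34% of all genes. The median log2 fold was −0.14 over the members and −0.0004 over all genes. All 10 members had a negative log2 fold, but those of Hk2 and Pgk1 were 0.02 and 0.03 when counts were scaled by library size alone, which moved the median of all genes to 0.04. With library size alone 355 genes were called higher and 255 lower, against 183 and 322 with TMM scaling. With the hashtag number as a block, 340 genes were called higher and 534 lower, and Aldoa and Ldhb were again the members called (adjusted p = 0.000454 and 0.000487).

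**Figure D1:**
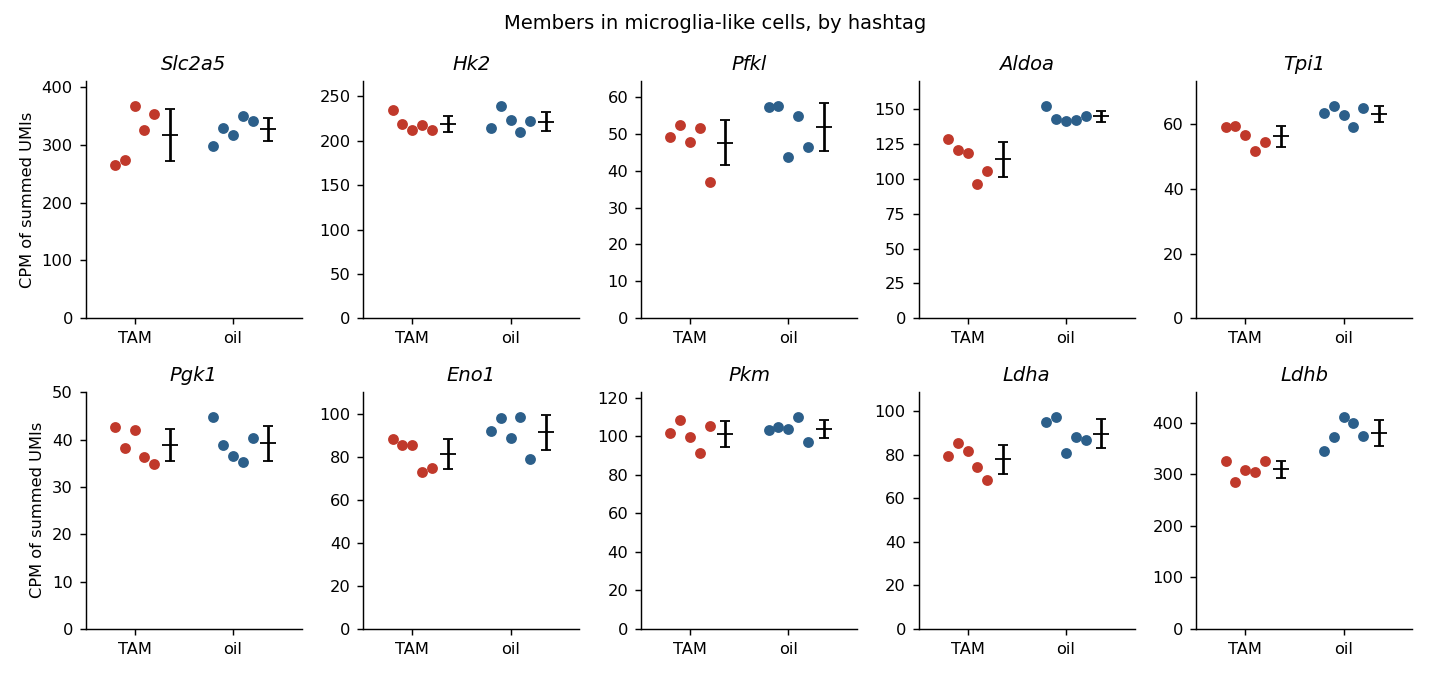
CPM of summed UMIs (vertical axis, from 0) of each member in microglia-like cells, 1 point per hashtag, TAM on the left and oil on the right of each panel; the black bar is the mean with its SD (n = 5 each). Only in the panels of Aldoa and Ldhb do all TAM points lie below all oil points.

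Slc2a5 had 265.7, 274.3, 366.1, 325.4 and 352.9 CPM in TAM1 to TAM5, against 298.2, 328.1, 316.6, 349.1 and 340.3 CPM in Oil1 to Oil5. The treatments overlapped, and the lowest values were those of the male TAM1 and TAM2. The log2 fold was −0.04, with a 95% interval of −0.22 to 0.14 (adjusted p = 0.840). Hk2, the insulin-responsive hexokinase, averaged 219 ± 9.08 CPM with TAM and 222 ± 11.1 CPM with oil, and the 95% interval of its log2 fold was −0.12 to 0.09. Pfkl, the liver-type phosphofructokinase subunit, averaged 47.6 ± 6.20 CPM with TAM and 51.8 ± 6.42 CPM with oil.

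Besides Ldhb, no enzyme member below aldolase passed the test. Tpi1, triosephosphate isomerase, had 51.9 to 59.5 CPM with TAM (median 56.8) and 59.2 to 65.6 CPM with oil (median 63.4). It was lower with TAM in 5 of 5 pairs of the same number, its treatments met at the edge only, and its log2 fold was −0.17 ± 0.06 (SE; edgeR, adjusted p = 0.126). Ldha, the A subunit of lactate dehydrogenase, had 79.3, 85.6, 81.5, 74.4 and 68.5 CPM in TAM1 to TAM5, against 95.01, 97.2, 80.7, 88.2 and 86.8 CPM in Oil1 to Oil5. Oil3 fell inside the TAM range, and the log2 fold was −0.20 ± 0.07 (SE; edgeR, adjusted p = 0.109). Eno1, enolase 1, averaged 81.5 ± 7.05 CPM with TAM and 91.4 ± 7.97 CPM with oil (edgeR, adjusted p = 0.229) and was likewise lower in 5 of 5 pairs. Pfkl and Ldha were lower in 4 of 5 pairs, and Slc2a5, Hk2, Pgk1 and Pkm in 3 of 5. How many of all genes were lower in 5 of 5 pairs was not counted. Pgk1, phosphoglycerate kinase 1, and Pkm, the muscle-type pyruvate kinase gene, had log2 folds of −0.01 and −0.04 with 95% intervals of −0.20 to 0.18 and −0.17 to 0.09.

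Summed over the 9 enzyme members, the level was 996 to 1108 CPM in the TAM hashtags and 1156 to 1217 CPM in the oil hashtags, with means of 1046 ± 42.7 and 1186 ± 24.3 CPM. The hashtags of the treatments did not overlap in this sum, of which Ldhb was the part with the most UMIs. It includes Aldoa and Ldhb, the 2 members called, which did not overlap on their own. Hk2, Pgk1 and Pkm had log2 folds of only −0.02, −0.01 and −0.04, and the enzymes without Aldoa and Ldhb were not summed. The balance of the lactate dehydrogenase subunits differed by less than the spread between hashtags. The log2 ratio of Ldhb to Ldha UMIs was 1.99 ± 0.19 with TAM and 2.09 ± 0.19 with oil (SD, n = 5 each).

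The immediate early genes, which respond within minutes to stimuli and to tissue handling, moved with treatment in the same hashtags. Their summed level over 23 genes was 942 to 2123 CPM with TAM and 2100 to 6886 CPM with oil, and 17 of the 23 were called lower. Over the 10 hashtags, which share a pool, the level of Aldoa had a Pearson correlation of 0.880 with the mean log2 CPM of 21 of these genes, and of 0.610 after the mean of each treatment was removed. For Ldhb the values were 0.606 and −0.42, so within a treatment the sign was opposite. The immediate early level did not overlap between treatments (mean log2 CPM 3.86 to 4.95 with TAM, 5.07 to 7.01 with oil). A fit with this level as a covariate therefore cannot tell it apart from treatment. In that fit Aldoa lost its call (log2 fold −0.17; edgeR, adjusted p = 0.620), while Ldhb kept it (−0.39, adjusted p = 0.0244), where 0.17% of genes were called lower. Slc2a5 was not called there either, but its log2 fold was −0.34 ± 0.10 (SE; edgeR, adjusted p = 0.137) in place of −0.04. Without the cells of the cluster led by Fos, both kept their calls, with log2 folds of −0.42 and −0.30. Leaving out the 3 hashtags highest in these genes (Oil1, Oil2, Oil3), 0 members and 7 genes in all were called, with log2 folds of −0.33 for Aldoa and −0.31 for Ldhb (edgeR, adjusted p = 0.207 and 0.0824). This left only Oil4 and Oil5, both female, against 5 TAM hashtags, of which TAM1 and TAM2 were male. The summed microglial markers were 37251 to 38330 CPM with TAM and 38104 to 41091 CPM with oil, and 4 of 14 were called lower. The dividing state list summed to 55.4 to 239 CPM with TAM and 31.8 to 60.7 CPM with oil, with 6 of 8 genes called higher, and mitochondrial genes took 0.879% to 1.004% of UMIs with TAM and 0.796% to 0.905% with oil. The part of these lists in the result was not tested. In cells summed per hashtag, fewer cells of a state and less RNA per cell cannot be told apart.

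**Figure D2:**
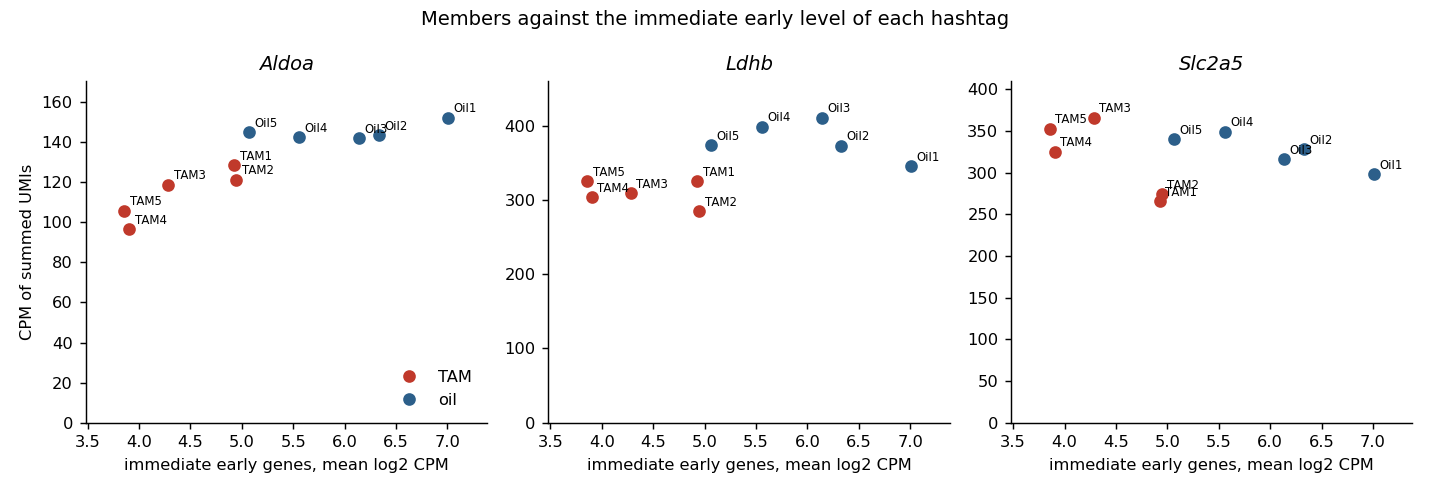
CPM of Aldoa, Ldhb and Slc2a5 (vertical axes, from 0) against the mean log2 CPM of the immediate early genes (horizontal axis), 1 point per hashtag with its name, TAM in red and oil in blue. TAM and oil hashtags do not overlap on the horizontal axis, which runs from 3.86 in TAM5 to 7.01 in Oil1.

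The comparison was repeated inside the 3 clusters that every hashtag filled with at least 20 cells. Of the listed state markers, none was among the leading genes of cluster 0, cluster 1 or cluster 2. No member was called in any of them, where 0.149%, 0.919% and 0.329% of genes were called in either direction. Aldoa had log2 folds of −0.19 ± 0.09, −0.22 ± 0.09 and −0.34 ± 0.10 (SE) in clusters 0, 1 and 2, the last as large as over all cells. Ldhb had −0.18 ± 0.07, −0.13 ± 0.09 and −0.21 ± 0.07 (SE), each smaller than the −0.30 over all cells. The clusters themselves differed in the enzymes and in their make-up. Cluster 1, with 607 TAM and 1067 oil cells, held 1.23 times the Aldoa and 1.19 times the Ldhb level of clusters 0 to 2 combined. Cluster 2, with 1589 TAM and 736 oil cells, held 0.830 and 0.886 times that level. In cluster 1 Aldoa, Eno1, Pkm, Ldha and Ldhb were above the level of clusters 0 to 2 in 10 of 10 hashtags. In cluster 2 Aldoa, Eno1, Pkm and Ldhb were below it in 10 of 10. How many of all genes lay on 1 side in 10 of 10 hashtags was not counted. The immediate early genes stood at 1.27 and the microglial markers at 1.121 of the same level in cluster 1, against 0.877 and 0.898 in cluster 2. The activated and chemokine state lists stood at 1.32 each in cluster 1, against 0.904 and 0.971 in cluster 2. The median depth was 4300.5 UMIs per cell in cluster 1 and 5688 in cluster 2. The part of these lists and of depth in the enzyme levels was not tested.

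**Figure D3:**
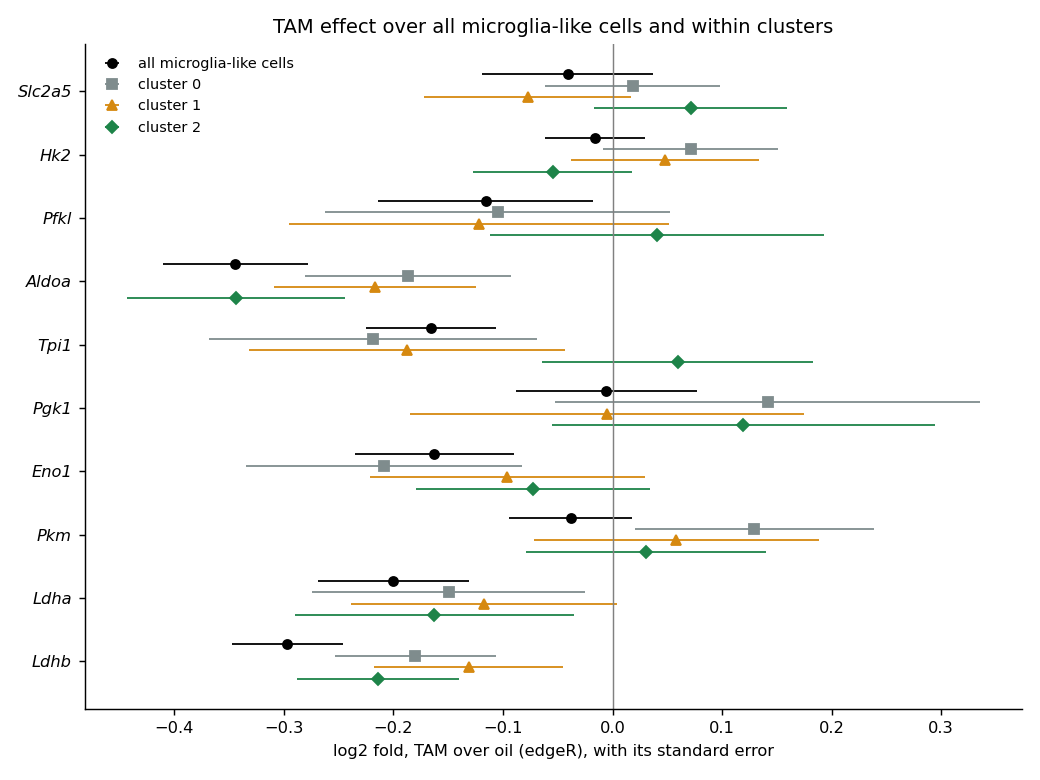
Log2 fold of TAM over oil (horizontal axis) with its standard error for each member (down the page), over all microglia-like cells and within clusters 0, 1 and 2. Aldoa, Ldha and Ldhb lie below 0 in all 4 sets, whereas Pgk1 and Pkm straddle it.

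In female hashtags, fitted together with the male ones in 1 model, Aldoa and Ldhb were called lower with log2 folds of −0.41 and −0.34, where 3.41% of genes were. In male hashtags no member was called lower, where 1.15% of genes were, and the log2 folds were −0.24 and −0.23. The difference of the effect between male and female hashtags passed the test for 0 members and for 0.0179% of genes. Slc2a5 had the member difference farthest from 0, with log2 folds of −0.21 in male and 0.06 in female hashtags (edgeR interaction test, adjusted p = 0.818). Male effects rest on 2 hashtags per treatment and female effects on 3. In both treatments the male hashtags were numbers 1 and 2 and had the highest immediate early levels. Sex, hashtag number and immediate early level therefore cannot be told apart here.

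Other genes of carbon metabolism were compared as lists. Of 19 other glycolytic enzyme genes, 8 had enough counts, and 1 of these was lower. This was Gapdh, glyceraldehyde-3-phosphate dehydrogenase, with 242.6 to 279.8 CPM in TAM hashtags and 280.7 to 310.8 CPM in oil hashtags (log2 fold −0.20 ± 0.05 SE; edgeR, adjusted p = 0.0275). Of 7 pentose phosphate pathway genes, which feed sugar carbon to NADPH and nucleotides, 1 was lower. Taldo1, the gene of transaldolase, averaged 110 ± 8.94 CPM with TAM and 132 ± 9.19 CPM with oil (log2 fold −0.27 ± 0.06 SE; edgeR, adjusted p = 0.0226). Both calls were lost without any 1 of TAM3, TAM4, TAM5, Oil2 or Oil3, with edgeR adjusted p-values up to 0.0820 and 0.0654, and that of Gapdh also without Oil4 (0.0576). With the immediate early covariate both were lost (0.625 and 0.983). No gene passed among the other sugar transporters (0 of 4 tested), fructose metabolism (0 of 4), lactate and pyruvate handling (0 of 11), glycogen metabolism (0 of 8), regulators of glycolysis (0 of 8) or HIF-1 with its other targets (0 of 11). Over all 11171 tested genes, 2.88% were called lower and 1.64% higher. Slc2a1, the glucose transporter GLUT1, averaged 28.5 ± 4.20 CPM with TAM and 38.7 ± 8.19 CPM with oil and overlapped between treatments (adjusted p = 0.0750). Slc2a3, the glucose transporter GLUT3, had the opposite sign, with 29.9 ± 2.59 CPM with TAM and 23.1 ± 7.86 CPM with oil (log2 fold 0.37 ± 0.17 SE; edgeR, adjusted p = 0.234). Khk, ketohexokinase, which phosphorylates the fructose that GLUT5 admits, had 36.1 to 45.0 CPM with TAM and 45.1 to 54.2 CPM with oil without overlap (edgeR, adjusted p = 0.0741). Treatments did not overlap for 5.34% of all tested genes.

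The ratios of the members were farther from 1 between some cell states than between treatments. Cluster 6, a small microglia-like group of 132 TAM and 72 oil cells, was led by Spp1, Lgals3 and Lpl and by the chemokine genes Ccl3 and Ccl4. In it Aldoa, Tpi1, Pgk1, Eno1, Pkm and Ldha stood 2.05- to 3.74-fold above clusters 0 to 2 of the same hashtags, while Slc2a5 stood at 0.328 of their level. Since clusters were drawn from the same cells, these ratios are a description with no test, and no member was among the 2000 variable genes that shaped the clusters. Intervals on ratios are 95% Poisson intervals and cover counting error only.

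Per hashtag, with 12 to 36 cells each, Slc2a5 had 84.4 to 155 CPM in cluster 6 and 272 to 392.2 CPM in clusters 0 to 2. These ranges did not meet, and the ratio within a hashtag was 0.247 to 0.396, below 1 in 10 of 10 hashtags. Aldoa had 237 to 474 CPM in cluster 6 and 97.0 to 154 CPM in clusters 0 to 2, and its ratio was 2.02 to 3.32. Tpi1 had 139 to 287 CPM in cluster 6 and 48.2 to 62.2 CPM in clusters 0 to 2. For both genes the lowest hashtag of cluster 6 was above the highest of the other clusters. Pkm, with 192 to 454 CPM against 87.1 to 107 CPM, showed the same separation. Pgk1 had the highest pooled ratio of the members, 3.74 (3.18 to 4.36), and a wide spread over hashtags of 45.8 to 208 CPM in cluster 6 against 30.8 to 38.2 CPM in clusters 0 to 2. The neighbours Tpi1 and Pgk1 in this order did not differ beyond their intervals.

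Ldha and Ldhb, which encode subunits of the same enzyme, parted in cluster 6. Ldha stood at 2.67 (2.35 to 3.02) times the level of clusters 0 to 2 and was above it in 10 of 10 hashtags. Ldhb stood at 0.839 (0.753 to 0.933) and was above it in 1 of 10. At the top of the pathway, Hk2 was at 0.862 (0.755 to 0.979), with 4 of 10 hashtags above, and Pfkl at 1.42 (1.13 to 1.76), with 9 of 10 above. Eno1 was at 2.05 (1.78 to 2.35), above in 9 of 10 hashtags and below in Oil3. In all, 6 of 10 members had a ratio of 2 or more in cluster 6, as did 3.49% of 9246 genes with at least 10 expected UMIs, and 1 of 10 had a ratio of 0.5 or less, as did 4.83%. The members' median ratio was 2.28, against 0.973 over those genes.

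**Figure D4:**
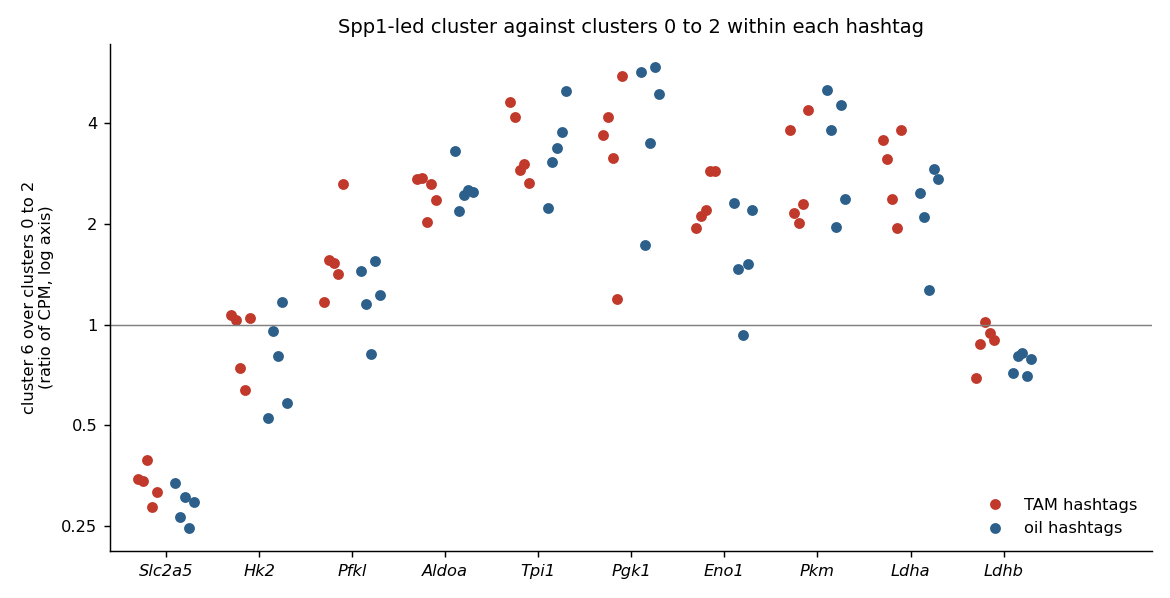
Ratio of the CPM in cluster 6 to that in clusters 0 to 2 of the same hashtag (vertical log axis) for each member, 1 point per hashtag, TAM in red left of oil in blue. All 10 points of Slc2a5 lie below 1 and all 10 of Aldoa, Tpi1, Pgk1, Pkm and Ldha above it.

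With each cell thinned to 2000 UMIs, so that depth was equal, Slc2a5 was found in 21.4% of 201 cells of cluster 6 (95% Wilson interval 16.3% to 27.6%) and in 45.0% to 51.2% of the cells of clusters 0 to 2. Aldoa was found in 44.8% (38.1% to 51.7%) of cluster 6 and in 17.2% to 26.0% of cells of clusters 0 to 2. These intervals take the cells as independent and leave out the variation between hashtags. Over the 3 hashtags with at least 20 such cells in cluster 6, the shares were 22.4% ± 12.0% for Slc2a5 and 45.8% ± 12.7% for Aldoa (SD). Without thinning the shares in cluster 6 were 44.6% for Slc2a5 and 71.6% for Aldoa. For comparison, unnamed cluster 7, where the microglial markers are low, had Slc2a5 UMIs in 3.85% of 52 cells at a median depth of 3684.5 UMIs, against 5646 in cluster 6. Sum and share thus went the same way for both genes.

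In cluster 6 the microglial identity genes P2ry12 and Tmem119 were at 0.430 and 0.428 of the level in clusters 0 to 2. The 14 microglial markers summed to 33578 CPM in cluster 6 and 39183 CPM at the level of clusters 0 to 2, and 4 of the 14 had a ratio of 0.5 or less. Markers of CNS-associated macrophages and monocytes stayed at 4.98 and 9.97 CPM in cluster 6. The dendritic cell list was at 282 CPM against 28.7 CPM, a list that includes Itgax, which is also in the activated state list. The part of these in the members' ratios was not tested.

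Other genes of carbon metabolism were read in cluster 6 in the same way. Gapdh was at 2.16 (2.002 to 2.33), Pgam1, phosphoglycerate mutase, at 2.29 (1.98 to 2.63) and Gpi1, glucose-6-phosphate isomerase, at 1.62 (1.34 to 1.93) times the level of clusters 0 to 2. Hk1 was lower, at 0.455 (0.249 to 0.764), on 14 UMIs. Of the 7 other enzymes with enough counts, 2 had a ratio of 2 or more and 1 had 0.5 or less, and their median ratio was 1.09. Over 9246 genes these shares were 3.49% and 4.83%, and the median ratio was 0.973. Among sugar transporters Slc2a1 (GLUT1) stood at 2.67 (2.15 to 3.26), opposite to Slc2a5, and Khk was at 0.639 (0.445 to 0.888). The lactate transporter genes Slc16a1 and Slc16a3 were at 3.22 (2.30 to 4.39) and 2.77 (2.17 to 3.49), and the glycolytic activator gene Pfkfb3 at 2.08 (1.79 to 2.40). Median ratios were 0.780 over 4 sugar transporters and 1.31 over 3 fructose metabolism genes. They were 1.03 over 10 lactate and pyruvate genes and 0.981 over 6 regulators of glycolysis. Of the 6 regulators, 1 had a ratio of 2 or more and 0 had 0.5 or less. Pfkfb4 was at 0.643 (0.453 to 0.887) and Pdk1 at 0.718 (0.568 to 0.896). Hif1a, the oxygen-regulated subunit of HIF-1, was at 3.21 (2.90 to 3.54), and Mif, a cytokine gene and HIF-1 target, at 4.48 (4.00 to 4.99). Not all HIF-1 targets shared this direction, as Ddit4 was at 0.322 and Mxi1 at 0.688, and the median of 10 such genes was 1.10.

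Within cluster 6 the treatments were compared over all 10 hashtags after the minimum was lowered to 10 cells, a choice made after seeing the data. None of the 9 members with enough counts was called, where 0.0456% of 2193 genes were. Aldoa had 237 to 324 CPM in TAM hashtags and 337 to 474 CPM in oil hashtags of cluster 6, without overlap, and a log2 fold of −0.45 ± 0.18 (SE; edgeR, adjusted p = 0.399). Slc2a5 had a log2 fold of 0.25 ± 0.26 (SE; adjusted p = 0.826).

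**Figure D5:**
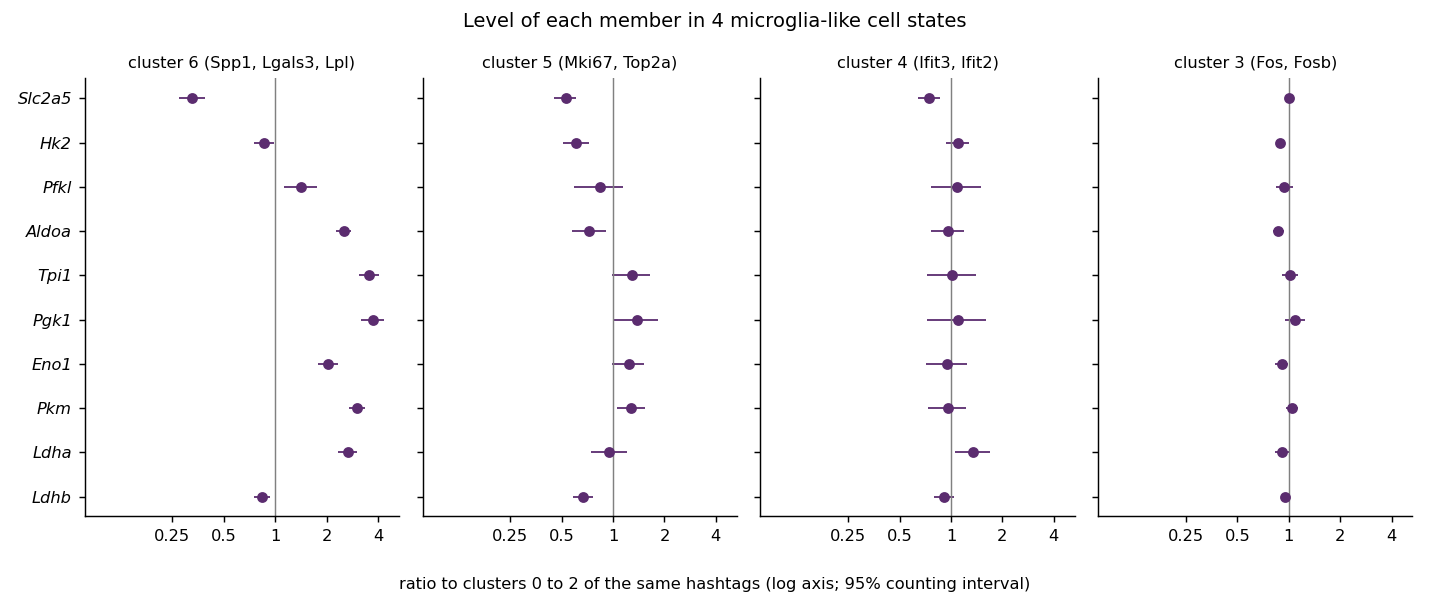
Ratio of the pooled level in clusters 6, 5, 4 and 3 to that of clusters 0 to 2 of the same hashtags (horizontal log axis) for each member, with 95% Poisson intervals for counting error. Cluster 6 spreads from 0.328 for Slc2a5 to 3.74 for Pgk1, whereas in cluster 3 all members lie between 0.868 and 1.09.

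Cluster 5, 126 TAM and 18 oil cells led by the division genes Mki67 and Top2a, also had less Slc2a5 than clusters 0 to 2. Slc2a5 was at 0.528 (0.453 to 0.611), Hk2 at 0.611 (0.511 to 0.726), Ldhb at 0.668 (0.580 to 0.765) and Aldoa at 0.725 (0.572 to 0.906) times the level of clusters 0 to 2. Pgk1 and Pkm were at 1.38 (1.01 to 1.83) and 1.27 (1.05 to 1.53), and the intervals of Pfkl, Tpi1, Eno1 and Ldha included 1. Under the other clusterings (without carbon metabolism genes, or at Leiden resolution 1.0) the dividing cluster held only 37 cells, and several ratios moved by over 1.5 times. Hk2 was then at 0.316 and 0.317, Aldoa at 0.480 and 0.487 and Pgk1 at 2.33 in both. Eno1 was on the other side of 1, at 0.686 and 0.681, with intervals that included 1. In cluster 4, led by the interferon-induced genes Ifit3, Ifit2 and Ifit1, Slc2a5 was at 0.744 (0.639 to 0.862) and Ldha at 1.34 (1.05 to 1.69), and the other 8 intervals included 1. In cluster 3, 45 TAM and 976 oil cells led by Fos, Fosb and Egr1, Aldoa was at 0.868 (0.806 to 0.933) and Hk2 at 0.891 (0.842 to 0.944). Eno1 was at 0.909 (0.831 to 0.994) and Ldhb at 0.953 (0.912 to 0.995) there, and the other intervals included 1. At Leiden resolution 1.0 the Fos-led cluster had Aldoa at 1.03 (0.969 to 1.09), and without carbon metabolism genes at 0.873 (0.814 to 0.935).

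By state, the mean level of Slc2a5 over hashtags was 368 ± 39.4 CPM in cluster 0, 326 ± 42.03 in cluster 1, 310 ± 37.1 in cluster 2 (SD, n = 10 each) and 327 ± 20.4 in cluster 3 (n = 6). The spreads of these 4 met, although within a hashtag cluster 0 was above the level of clusters 0 to 2 in 10 of 10 and cluster 2 in 0 of 10. It was 293 ± 66.4 CPM in cluster 4 (n = 2), 206 ± 33.9 in cluster 5 (n = 3) and 104 ± 20.03 in cluster 6 (n = 10). Hashtags with at least 20 cells were counted, or 10 cells in cluster 6. At 10 cells cluster 4 had 255 ± 72.4 CPM (n = 8), with ratios of 0.403 to 1.17 to clusters 0 to 2 and 7 of 8 hashtags below them. Aldoa ran from 64.3 ± 12.6 CPM in cluster 5 (n = 3) over 105 ± 18.3 in cluster 2 and 159 ± 15.7 in cluster 1 (n = 10 each) to 323 ± 69.5 in cluster 6 (n = 10). Ldhb ran from 219 ± 20.6 CPM in cluster 5 (n = 3) over 289 ± 37.7 in cluster 6 to 421 ± 47.5 in cluster 1 (n = 10 each).

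Across the 10 hashtags the members did not form 1 block. The 45 pairwise Pearson correlations of log2 CPM ran from −0.48 to 0.930 with a median of 0.314, and 12 were above 0.5. Tpi1 and Aldoa were the closest pair (0.930, and 0.802 after the treatment means were removed), and Hk2 and Slc2a5 the lowest (−0.48). The lactate dehydrogenase subunits had 0.379, and −0.70 after the treatment means were removed. Among 6764 genes with at least 20 CPM, the profiles most like that of Slc2a5 were those of Trp53cor1 (0.9754), Man1a (0.934) and Slc25a26 (0.926). Those most like Ldhb were Calu (0.969), Slc25a4 (0.923) and Larp1 (0.921). These points share 1 pool and differ in sex and immediate early level, so the values describe these hashtags.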

How the data were processed

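Per the labels, sorted microglia of oil and TAM animals were run as 1 droplet pool with a gene expression and a hashtag library. The values are raw UMI counts per gene and barcode, as the authors deposited them. Per the file headers it came from Cell Ranger 7.0.0, and the submitters' processing notes name the build mm10. For annotation, shared reads and strand, the rules were not given in the sources used here. UMIs are counted once per molecule, so intervals and floors cover counting error only. The feature names gave each hashtag its treatment and number.

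HTODemux (Seurat 5.3.0) assigned barcodes to hashtags (positive quantile 0.99), giving 8055 singlets, 1737 barcodes with several hashtags (17.4%) and 183 without (1.83%). Only singlets were kept, and no other doublet caller was run, so doublets of the same hashtag remain. Barcodes needed 500 genes, 1000 UMIs and at most 10% mitochondrial UMIs. Clusters came from scanpy 1.11.5 (2000 variable genes, 30 components, 15 neighbours, Leiden resolution 0.5). Cluster names rest on marker lists, and cluster numbers are arbitrary.

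UMIs were summed per hashtag, and the hashtag was the replicate. edgeR 4.0.16 (TMM, filterByExpr, quasi-likelihood F test, Benjamini-Hochberg over all genes, threshold 0.05) gave adjusted p-values. Standard errors are the size of the log2 fold over √F, and intervals use 8 degrees of freedom. DESeq2 1.42.0 was an alternative. Deviations of hashtags with the same number correlated by 0.504 to 0.772 in all 5 pairs, each of 1 sex, which met the rule for numbers that pair samples, although only 3 of 5 TAM hashtags were closest to the oil hashtag of their own number. The reported fit has no block, and the fit with the number as a block was an alternative. Ratios between clusters compare summed UMIs with those expected from clusters 0 to 2 of the same hashtags. Coordinates are from GENCODE M21.

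The members, gene lists and tests were chosen with earlier results of these data known. Named list genes are up to 4 per list with the smallest p in the main comparison. In cluster 6, list genes were chosen for mention after their values were seen.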

Additional observations from a re-analysis of the deposited data

Results flagged for a closer look

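Pfkl, the liver-type phosphofructokinase subunit gene, had 49.2, 52.4, 47.9, 51.6 and 37.0 CPM in TAM1 to TAM5. On the log2 CPM scale TAM5 lay below the other 4 with a gap of 0.739 of the whole range of the TAM hashtags, above the critical value of 0.71 for 5 samples. On the CPM scale the gap was 0.704 of the range, below that value. The oil hashtags had 43.6 to 57.4 CPM and held no such value. Chance marks about 1 in 20 groups, and 20 groups were looked at.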

How the results depend on the processing

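Aldoa and Ldhb were the 2 members called lower, and no member higher, with library size alone, DESeq2, no filter, the replicate block, all singlets, without the Fos-led cluster, and with any 1 hashtag left out (2 to 2 lower and 0 to 0 higher). With sex as a covariate Ldha joined them (adjusted p = 0.0434). The number called lower was 1 with the immediate early covariate. It was 0 in the largest cluster, under stricter hashtag assignment and without Oil1 to Oil3, and fewer cells or hashtags enter these 3. Stricter assignment left 790 cells in Oil3 but 15 in Oil1, 51 in Oil2, 4 in Oil4 and 1 in Oil5. The TAM hashtags kept 10 to 143 cells, so log2 folds under stricter assignment rest on few cells in most hashtags. Over all genes 74 to 237 were called higher and 173 to 420 lower with 1 hashtag left out, and both counts moved by over 1.5 times without TAM3 (91 and 195), TAM4 (82 and 177), TAM5 (80 and 173), Oil2 (116 and 206) or Oil3 (74 and 178). In other settings higher and lower counts were 355 and 255 (library size), 334 and 504 (no filter), 340 and 534 (replicate block), 341 and 535 (sex), 49 and 19 (immediate early covariate), 6 and 25 (largest cluster), 31 and 44 (stricter assignment) and 2 and 5 (without Oil1 to Oil3); the cause was not tested.

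Aldoa and Ldhb kept their sign in all 21 alternatives. Members not called crossed 0 as follows. Log2 folds turned positive with library size alone for Hk2 (0.020) and Pgk1 (0.030). With the immediate early covariate they did for Hk2 (0.041), Pfkl (0.12), Pgk1 (0.18), Eno1 (0.042) and Pkm (0.032), and for the list gene Slc2a1 (0.052). In the largest cluster they did for Slc2a5 (0.071), Pfkl (0.041), Tpi1 (0.060), Pgk1 (0.12) and Pkm (0.030). Under stricter assignment, with 1 to 790 cells per oil hashtag, they did for Pgk1 (0.38), Eno1 (0.064), Pkm (0.14), Ldha (0.053) and the list gene Mxi1 (0.16). Without Oil1 to Oil3 they did for Hk2 (0.026) and Pgk1 (0.044). With 1 hashtag left out the range crossed 0 for Slc2a5 (−0.10 to 0.017), Hk2 (−0.042 to 0.012) and Pgk1 (−0.043 to 0.044).

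In the Spp1-led cluster, 35 of 40 alternative ratios moved by less than 1 SD over hashtags. Slc2a5 was at 0.384 when carbon metabolism genes were kept out of the clustering, at 0.40 at Leiden resolution 1.0 and at 0.453 as a ratio of thinned shares, and Aldoa was at 2.07 and 2.12 in the first and last of these. With 204 cells and 84 to 374 UMIs per member, cluster 6 limits the precision.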

Other observations

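The unnamed clusters showed other patterns of the members. Cluster 7, 38 TAM and 14 oil cells with H2-Eb1 and H2-Aa (antigen presentation) as leading genes, held 2 UMIs of Slc2a5 and 4 of Ldhb, 0.0286 (0.00346 to 0.103) and 0.0571 (0.0155 to 0.146) times the level of clusters 0 to 2. Its 14 microglial markers all had a ratio of 0.5 or less. The summed dendritic cell list was at 25131 CPM against 29.0 CPM at the level of clusters 0 to 2, the monocyte list at 133 times and the list of CNS-associated macrophages at 60.2 times that level. The part of these in the ratios of the members was not tested. Eno1, Pkm and Ldha were at 2.04 (1.42 to 2.86), 1.75 (1.21 to 2.44) and 1.74 (1.15 to 2.51) in these cells. Only 52 cells carry these values.

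Cluster 8, 169 TAM and 137 oil cells with a median of 1502 UMIs, split the members another way. Slc2a5 and Hk2 were at 0.882 (0.746 to 1.03) and 1.19 (1.001 to 1.41), while Aldoa and Pkm were at 0.129 (0.0556 to 0.254) and 0.146 (0.0587 to 0.301) times the level of clusters 0 to 2. The remaining enzymes lay between 0.227 and 0.527. The summed microglial markers were at 0.614 of that level, with 5 of 14 at 0.5 or less, and the activated state list at 0.484, and their part was not tested.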
